A study of Homo sapiens with 3 samples.

Results

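The 34 genes described here encode the machinery that cuts proteins into peptides, carries the peptides into the endoplasmic reticulum or endosome, and displays them on MHC class I and class II molecules. They were the rows of the expression table whose gene name equalled a name on the list, and all 34 were found among 50867 genes. By role they were 19 genes of the class I route, 9 of the class II route, 4 transcriptional regulators and 2 MHC-like molecules, and 16 of them lie on chromosome 6. Of the 34, 27 had a mean CPM (counts scaled to a common library size) of at least 1 over the 3 libraries and entered the comparisons across genes. Each of these 27 also had at least 1 CPM in the control alone, so none entered through a hairpin library only. The other 7 (HLA-G, HLA-DRA, HLA-DRB1, HLA-DMA, HLA-DMB, IFI30 and CD1D) are given by their counts.

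Polyadenylated RNA was sequenced from UM-UC-3 cells, a human line established from a bladder cancer, after lentiviral infection and puromycin selection. The control line expressed a scramble hairpin (shControl, n = 1), and the shBLACAT2 group (n = 2) held 2 libraries, each made with another hairpin (shRNA 1 or shRNA 2) that targets BLACAT2, a long non-coding RNA. All 3 lines carried a lentiviral hairpin, and the labels do not say whether a line came from 1 clone or whether any culture was repeated. The libraries held 16424422, 17670199 and 16216947 counts, and mitochondrial transcripts took 3.88%, 4.58% and 2.51% of them. BLACAT2, listed as LINC00958, stood at 0.735 of the control level (95% counting interval 0.668 to 0.808) with shRNA 1 and at 0.996 (0.911 to 1.09) with shRNA 2. The labelled depletion was therefore not detected in the counts of the second library, and each direction below belongs to a library so labelled, whatever its BLACAT2 level. A fold for 1 hairpin compares 1 library with 1 library, has no replicate check, and carries an interval for counting error only. Both folds share the single control, so a high or low control count moves them together.

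MHC class I molecules present peptides made in the cell to CD8 T cells. Proteasomes cut the proteins, the TAP transporter moves the peptides into the endoplasmic reticulum, aminopeptidases trim them, and a heavy chain folds with beta-2-microglobulin around each. Interferon gamma exchanges the catalytic subunits of the constitutive proteasome for those of the immunoproteasome and raises the class I genes, with NLRC5 as their transactivator. MHC class II molecules present peptides from endosomes to CD4 T cells, are made mainly by professional antigen-presenting cells, and depend on the transactivator CIITA.

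The promoters of these genes were read for short motifs through which interferon and NF-kB factors are known to act. RefSeq promoter sequences (GRCh38.p14) matched 28 of the 34 genes, and the 200 bases before each start were searched on both strands. The core of the interferon-stimulated response element, GAAANNGAAA, was present before 8 of 28 member genes (28.6%) and before 2.97% of 27305 genes in the table. The stretches of 30 bases around these cores are shown because they include the peptide transporter, an immunoproteasome subunit and the light chain. Capitals mark every match of the core on either strand, and neighbouring matches overlap in TAP1, TAPBP and B2M.

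TAP1 (chr6:32853816-32853845, minus strand): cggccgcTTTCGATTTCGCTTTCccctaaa
TAP2 (chr6:32838778-32838807, minus strand): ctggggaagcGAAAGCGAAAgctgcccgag
TAPBP (chr6:33314079-33314108, minus strand): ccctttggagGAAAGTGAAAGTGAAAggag
PSMB10 (chr16:67936852-67936881, minus strand): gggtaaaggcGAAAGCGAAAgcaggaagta
PSME2 (chr14:24146619-24146648, minus strand): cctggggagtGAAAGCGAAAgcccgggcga
B2M (chr15:44711366-44711395, plus strand): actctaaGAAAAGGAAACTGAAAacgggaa
HLA-F (chr6:29723268-29723297, plus strand): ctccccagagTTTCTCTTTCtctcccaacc
ERAP2 (chr5:96876460-96876489, plus strand): tcttagaacaGAAAGTGAAAgcaaaagtaa

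PSMB10, PSME2 and TAP2 held the same 10 letters, GAAAGCGAAA, on the strand of the gene. In 6 of these 8 genes, all but B2M and TAP2, the match lies within an exon of another start of the same gene in GENCODE release 29. Such a match is a description of letters and says nothing on binding. The 8 genes did not share 1 pattern in the libraries: ERAP2 was at least 2-fold above the control with both hairpins, HLA-F, TAP1 and TAP2 with shRNA 2 but not shRNA 1, and B2M, TAPBP, PSMB10 and PSME2 with neither.

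The other motifs were also counted. An NF-kB site was found before 10 of 28 member genes (35.7%) and 9.71% of all, the CRE core TGACG before 10 (35.7%) and 21.8%, the CCAAT box before 15 (53.6%) and 32.7%, and the gamma-activated site TTCNNNGAA before 4 (14.3%) and 6.32%. The windows of HLA-B and HLA-C are shown because the ratio of these heavy chains differed between the libraries (below), up to the first base that GENCODE places in an exon of the gene. Capitals mark NF-kB, CRE core and CCAAT matches on either strand, and the capital run near the left end of HLA-B holds overlapping NF-kB matches.

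HLA-B (chr6:31357189-31357379, minus strand): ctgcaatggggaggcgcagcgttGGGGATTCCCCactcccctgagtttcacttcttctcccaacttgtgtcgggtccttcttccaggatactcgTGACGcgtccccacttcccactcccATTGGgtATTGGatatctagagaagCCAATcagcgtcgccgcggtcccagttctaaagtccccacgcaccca
HLA-C (chr6:31272131-31272292, minus strand): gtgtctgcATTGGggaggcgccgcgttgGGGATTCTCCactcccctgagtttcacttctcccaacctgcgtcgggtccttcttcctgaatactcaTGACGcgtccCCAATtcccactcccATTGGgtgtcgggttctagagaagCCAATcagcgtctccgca

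Both windows held an NF-kB match, the CRE core and CCAAT matches, and neither held the exact letters GAAANNGAAA on either strand. Other forms of the interferon-stimulated response element were not searched, so its absence from these windows was not shown. HLA-B had 3 CCAAT matches, all nearer the start than the NF-kB letters, and HLA-C 4, of which 1 lay farther from the start than the NF-kB letters.

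Per length, B2M, HLA-E, HLA-B and HLA-C were among the most abundant of the 34 genes, while HLA-F (6.59 FPKM in the control) and HLA-G (0.0861) were lower. Levels are compared between genes on the deposited FPKM scale, which divides a count by gene length and library total. B2M, the light chain of every class I molecule, had 175 FPKM in the control, at the 99.5th percentile of the 15132 genes tested, with 180 and 311 FPKM with shRNA 1 and shRNA 2. HLA-E, whose product engages an inhibitory receptor of natural killer cells, had 62.3, 65.8 and 163 FPKM. HLA-B, a classical heavy chain, had 43.4, 41.4 and 86.6 FPKM. The proteasome activator subunit PSME1 (37.9 FPKM in the control), HLA-C (23.9) and the class II invariant chain CD74 (18.4) followed. At the other end of the tested genes stood CIITA, with 0.0666 FPKM in the control, and the class II chain HLA-DPA1, with 0.278.

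**Figure D1:**
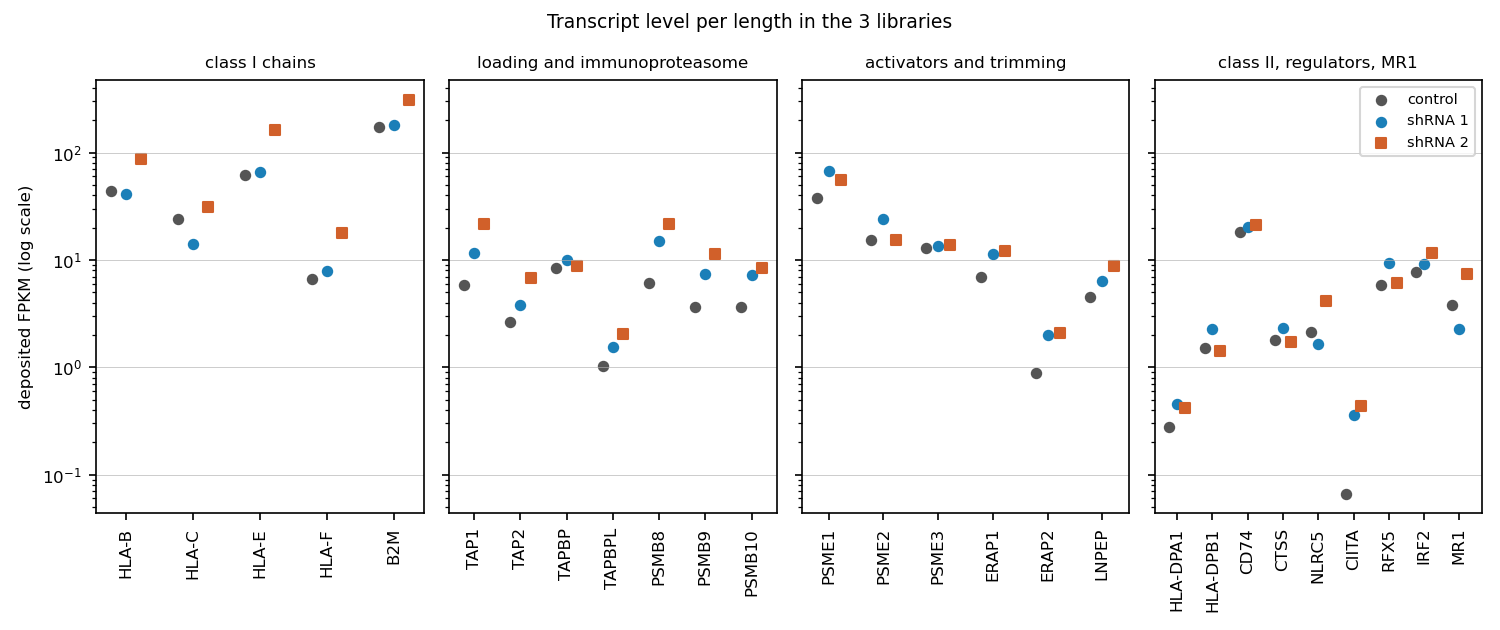
Deposited FPKM (log scale) of the 27 tested genes in the control, shRNA 1 and shRNA 2 libraries, 1 point per library. B2M lies highest in each library, at 175, 180 and 311 FPKM, and CIITA lowest, at 0.0666 FPKM in the control and 0.356 and 0.434 FPKM with the hairpins, apart from HLA-DPA1 at 0.413 FPKM with shRNA 2.

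The 4 tested heavy chains were each higher in the library labelled shRNA 2 than in either other library. Counts are given in the order control, shRNA 1, shRNA 2 from here on. HLA-B had 4080, 4185 and 8029 counts, or 0.867 (95% counting interval 0.830 to 0.905) and 1.73 (1.67 to 1.80) of the control after scaling. HLA-C, the other classical heavy chain on the list, had 2337, 1472 and 2979 counts, or 0.532 (0.498 to 0.568) and 1.12 (1.06 to 1.18) of the control. HLA-C was thus below the control in the shRNA 1 library and near it in the shRNA 2 library.

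The non-classical chains differed most with shRNA 2. HLA-E had 4049, 4599 and 10478 counts, and its log2 fold of 1.19 with shRNA 2 stood beside −0.06 with shRNA 1, which became 0.08 with library totals as the scaling. HLA-F, which can reach the surface without a peptide, had 935, 1204 and 2468 counts, with log2 folds of 0.12 and 1.21. HLA-G, the heavy chain of the placenta, had 4, 12 and 7 counts, with ratios of 2.54 (0.768 to 10.8) and 1.54 (0.391 to 7.17), so no difference was detectable at this depth. B2M had 36637, 40651 and 64319 counts, and its log2 folds were −0.09 and 0.63, the first becoming 0.04 with library totals. The summed counts of HLA-B, HLA-C, HLA-E and HLA-F were 11401, 11460 and 23954, or 0.849 and 1.85 of the control after scaling.

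Ratios of 1 gene to another within a library do not depend on the scaling of libraries. Relative to the control, the HLA-C to HLA-B ratio was 0.614 (0.568 to 0.664) with shRNA 1 and 0.648 (0.606 to 0.692) with shRNA 2. The HLA-E to HLA-B ratio was 1.11 (1.04 to 1.18) and 1.32 (1.25 to 1.39), and the HLA-F to HLA-B ratio 1.26 (1.14 to 1.38) and 1.34 (1.23 to 1.46). HLA-C was thus a smaller share of the heavy chain counts in both hairpin libraries, which share the control. Heavy chains are near-identical in part and their counts are uncertain: of the words of 50 bases in their transcripts, 6.39% for HLA-C, 5.13% for HLA-E, 4.38% for HLA-G, 2.54% for HLA-B and 1.70% for HLA-F also occur in another gene.

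Among the peptide transport and loading genes, the TAP subunits were above the control with both hairpins. TAP1 had 525, 1119 and 1914 counts, or 1.80 (1.62 to 2.00) and 3.21 (2.91 to 3.54) of the control. TAP2, its partner in the transporter, had 467, 719 and 1189 counts, or 1.30 (1.16 to 1.46) and 2.24 (2.01 to 2.50). Both subunits lay highest with shRNA 2 and lowest in the control, and the TAP2 to TAP1 ratio was 0.722 and 0.698 of that in the control. TAP1 did not pass edgeR's test of the group, with a fitted group log2 fold of 1.32 (SE 0.46) and an adjusted p of 0.417.

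The loading factors differed less. TAPBP encodes tapasin, which bridges the transporter and the heavy chain, and had 1199, 1537 and 1238 counts. Its log2 folds were 0.12 and −0.14, the second becoming 0.06 with library totals. TAPBPL, a related peptide editor, had 93, 152 and 184 counts, or 1.38 (1.06 to 1.81) and 1.74 (1.35 to 2.26) of the control.

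All 3 catalytic subunits of the immunoproteasome were above the control with both hairpins. PSMB8 had 311, 819 and 1089 counts, or 2.23 (1.95 to 2.54) and 3.08 (2.71 to 3.50) of the control. PSMB9 had 251, 544 and 766 counts, or 1.83 (1.57 to 2.14) and 2.68 (2.32 to 3.11). PSMB10 had 198, 421 and 446 counts, or 1.80 (1.51 to 2.14) and 1.98 (1.67 to 2.35).

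The control was the lowest of the 3 libraries for each of the 3 subunits, and shRNA 2 the highest. For PSMB10 the hairpin libraries did not differ beyond counting error (ratio 1.10, 0.963 to 1.26). For PSMB8 edgeR gave a log2 fold of 1.41 (SE 0.38) and an adjusted p of 0.271; across every test that was run the adjusted p ranged from 0.132 to 0.747. PSMB9 and PSMB10 had edgeR adjusted p-values of 0.416 and 0.508. The 14 genes of the constitutive proteasome had median log2 folds of 0.01 and −0.51, and 0 of them were 2-fold away from the control with either hairpin. Their 2 most abundant genes by mean CPM were PSMB7 (log2 folds 0.03 and −0.44) and PSMA4 (0.17 and −0.35).

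Each immunoproteasome subunit replaces 1 constitutive subunit, and these pairs were compared within each library. PSMB8 stood at 0.159 of PSMB5 by FPKM in the control, and at 0.349 and 0.596 in the hairpin libraries. Relative to the control this ratio was 2.19 (1.90 to 2.52) and 3.74 (3.25 to 4.29). The PSMB9 to PSMB6 ratio was 0.0810, 0.155 and 0.287, which is 1.91 (1.63 to 2.25) and 3.55 (3.03 to 4.15) relative to the control. The PSMB10 to PSMB7 ratio was 0.0304, 0.0533 and 0.0815, or 1.76 (1.48 to 2.09) and 2.68 (2.26 to 3.19). In all 3 pairs the ratio was higher with shRNA 2 than with shRNA 1. The constitutive partners were themselves lower with shRNA 2 than with shRNA 1, at ratios of 0.810 (PSMB5), 0.791 (PSMB6) and 0.721 (PSMB7). In every library the immunoproteasome subunit was below its partner.

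**Figure D2:**
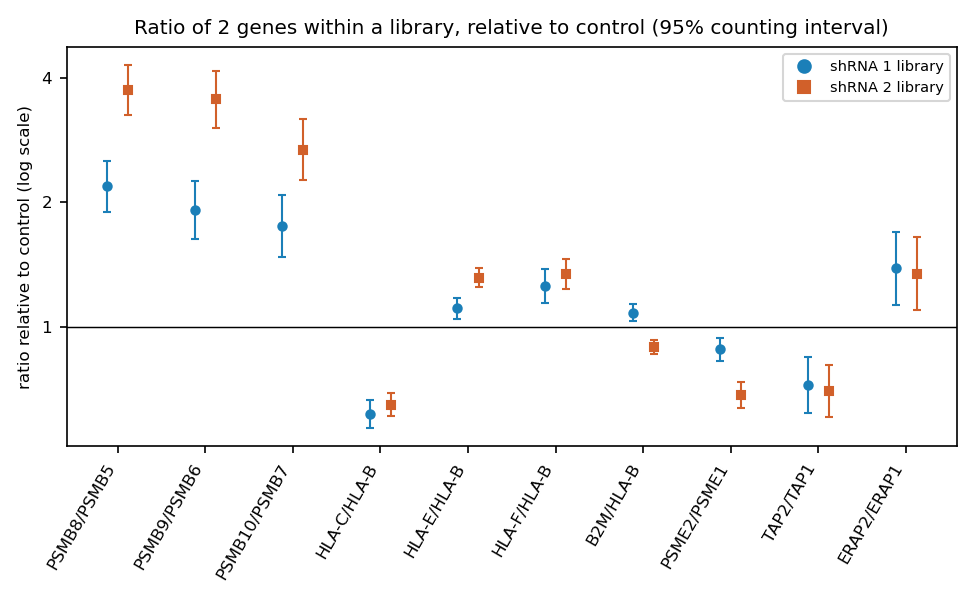
Ratio of 2 genes within a hairpin library divided by the same ratio in the control (log scale), with 95% counting intervals. The 3 immunoproteasome pairs lie between 1.76 and 3.74, and HLA-C over HLA-B lies at 0.614 and 0.648.

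Some of these loci overlap, and the strand setting of the counting is not given. The antisense transcript PSMB8-AS1 overlaps 20.6% of the exonic bases of PSMB8 and 9.49% of those of TAP1, and had 23, 85 and 106 counts, well below either gene. PSMB10 and TAP2 share 34.8% and 32.3% of their exonic bases with an unnamed gene on the same strand that has no row in the table. HLA-F-AS1, antisense to 12.3% of HLA-F, had 159, 388 and 178 counts and so was highest with shRNA 1, unlike HLA-F.

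The proteasome activators showed another order. PSME1 had 2679, 5157 and 3881 counts and PSME2, which joins it in the interferon-inducible activator ring, had 2909, 4938 and 2882. Their log2 folds were 0.70 and 0.52 with shRNA 1 and 0.35 and −0.20 with shRNA 2, the last becoming 0.00 with library totals. Both were highest with shRNA 1, in contrast to the immunoproteasome subunits. PSME3, the nuclear activator, had 3109, 3460 and 3270 counts and log2 folds of −0.09 and −0.11, which became 0.05 and 0.09 with library totals.

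The peptide-trimming enzymes, neighbours on chromosome 5, were above the control with both hairpins. ERAP1 had 1164, 2058 and 2006 counts, or 1.49 (1.39 to 1.61) and 1.52 (1.41 to 1.63) of the control. ERAP2 had 148, 362 and 343 counts, or 2.07 (1.70 to 2.52) and 2.04 (1.68 to 2.49). Both enzymes of the endoplasmic reticulum lay at like levels in the 2 hairpin libraries, and their shRNA 2 to shRNA 1 ratios were 1.01 (0.954 to 1.08) and 0.986 (0.848 to 1.15). For ERAP2 edgeR gave a log2 fold of 1.04 (SE 0.40) and an adjusted p of 0.473. LNPEP, which trims peptides in endosomes for cross-presentation, had 1239, 1873 and 2391 counts and log2 folds of 0.35 and 0.76.

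Of the class II route, the HLA-DR, HLA-DM and IFI30 genes had 16 counts or fewer in each library, while CD74 was abundant. HLA-DRA, the alpha chain of HLA-DR, had 1, 0 and 3 counts, and HLA-DRB1, its beta chain, 1, 0 and 0, which is at or below the limit of 3 counts that a count of 0 allows. HLA-DPA1 had 43, 76 and 63 counts, or 1.49 (1.01 to 2.22) and 1.29 (0.861 to 1.95) of the control. HLA-DPB1, the partner of HLA-DPA1, had 115, 184 and 107 counts, or 1.35 (1.07 to 1.72) and 0.818 (0.623 to 1.07). Both HLA-DP chains were highest with shRNA 1. For HLA-DPA1 the hairpin libraries did not differ beyond counting error (shRNA 2 to shRNA 1 ratio 0.863, 0.608 to 1.22). The summed counts of these 4 HLA-DR and HLA-DP chains were 160, 260 and 173.

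Of the genes that prepare class II molecules, only CD74 and CTSS were tested. CD74, the invariant chain, had 1955, 2308 and 2242 counts, which is 0.998 (0.939 to 1.06) and 1.01 (0.949 to 1.07) of the control. CTSS, the cathepsin that degrades the invariant chain, had 186, 259 and 179 counts, with log2 folds of 0.23 and −0.24. HLA-DMA, a chain of the peptide-exchange factor HLA-DM, had 2, 12 and 16 counts, with ratios of 5.07 (1.13 to 46.6) and 7.04 (1.65 to 63.1). HLA-DMB, the other chain, had 0, 2 and 2 counts and the lysosomal thiol reductase IFI30 0, 0 and 2, so neither was above the limit of 3 counts. IFI30 shares 40.2% of its exonic bases with an unnamed gene on the same strand that has no counts here. How shared reads were assigned is not given.

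CIITA, the transactivator of class II genes, was the gene with the largest fold among the 27 with either hairpin. Its counts were 28, 161 and 180, or 4.86 (3.24 to 7.54) and 5.65 (3.78 to 8.75) of the control. The hairpin libraries did not differ beyond counting error (ratio 1.16, 0.935 to 1.45), and the control lay below both. CIITA did not pass edgeR's group test, with a log2 fold of 2.39 (SE 0.57) and an adjusted p of 0.217; across every test that was run the adjusted p ranged from 0.0648 with DESeq2 to 0.747. Its level stayed low, at 0.356 and 0.434 FPKM with the hairpins. The gene DEXI, antisense to 11.6% of the exonic bases of CIITA, was listed at 0 in all 3 libraries. How reads were assigned at this overlap is not given, so that 0 does not show that CIITA's counts are free of DEXI reads. An unnamed gene on the same strand that has no counts here shares 11.5% of the exonic bases of CIITA. Of the words of 50 bases in CIITA, 15.2% also occur in another gene.

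The other regulators were mixed. NLRC5, the class I transactivator, had 839, 688 and 1619 counts, or 0.693 (0.626 to 0.767) and 1.70 (1.56 to 1.85) of the control. It was lowest with shRNA 1 and highest with shRNA 2, the order also seen for HLA-B and HLA-C after scaling. RFX5, a subunit of the complex that binds the X box of MHC promoters, had 1078, 1845 and 1105 counts and log2 folds of 0.53 and −0.15, the second becoming 0.05 with library totals. IRF2, a factor that binds the interferon response element, had 515, 657 and 760 counts and log2 folds of 0.11 and 0.38.

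The MHC-like molecules present other ligands than peptides. MR1, which presents vitamin B metabolites, had 755, 487 and 1441 counts, or 0.545 (0.485 to 0.612) and 1.68 (1.54 to 1.84) of the control. CD1D, which presents lipids, had 0 counts in all 3 libraries, which allows up to 0.198, 0.167 and 0.174 CPM.

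Over the 27 tested genes, 3 were at least 2-fold above the control with shRNA 1 (11.1%, against 7.92% of all 15132 genes tested) and 8 with shRNA 2 (29.6%, against 13.0%). The same 3 genes, CIITA, PSMB8 and ERAP2, passed that size with both hairpins (11.1%, against 5.29% of all genes), ERAP2 by the least (log2 folds 1.04 and 1.02). With DESeq2's size factors ERAP2 stood at 0.98 with shRNA 2 and 2 genes remained, and with library totals PSMB9 made it 4. HLA-E, HLA-F, TAP1, TAP2 and PSMB9 passed it with shRNA 2 alone. None was 2-fold lower with shRNA 1 (7.38% of all genes), with shRNA 2 (8.76%) or with both (4.50%). By any size, 14 were above the control with both hairpins (51.9%, against 37.1%). The median log2 folds were 0.38 with shRNA 1 and 0.75 with shRNA 2, against 0.01 and 0.04 for all genes tested.

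Class I and class II genes differed in their medians with shRNA 2. The 18 tested genes of the class I route had medians of 0.42 and 0.79, and 11 were above the control with both hairpins. The 4 tested genes of the class II route had 0.33 and −0.11, and 1, HLA-DPA1, was above with both. The heavy chains had −0.13 and 0.99, the immunoproteasome subunits 0.87 and 1.42, and the activators 0.52 and −0.11. No member passed edgeR's group test after Benjamini-Hochberg adjustment over all genes, where 6 of 15132 genes did (0.0397%). At an unadjusted p below 0.05 edgeR gave 5 members (18.5%, against 10.2% of all genes), namely CIITA, PSMB8, PSMB9, TAP1 and ERAP2. DESeq2 passed none of the members either and 3.51% of all genes.

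**Figure D3:**
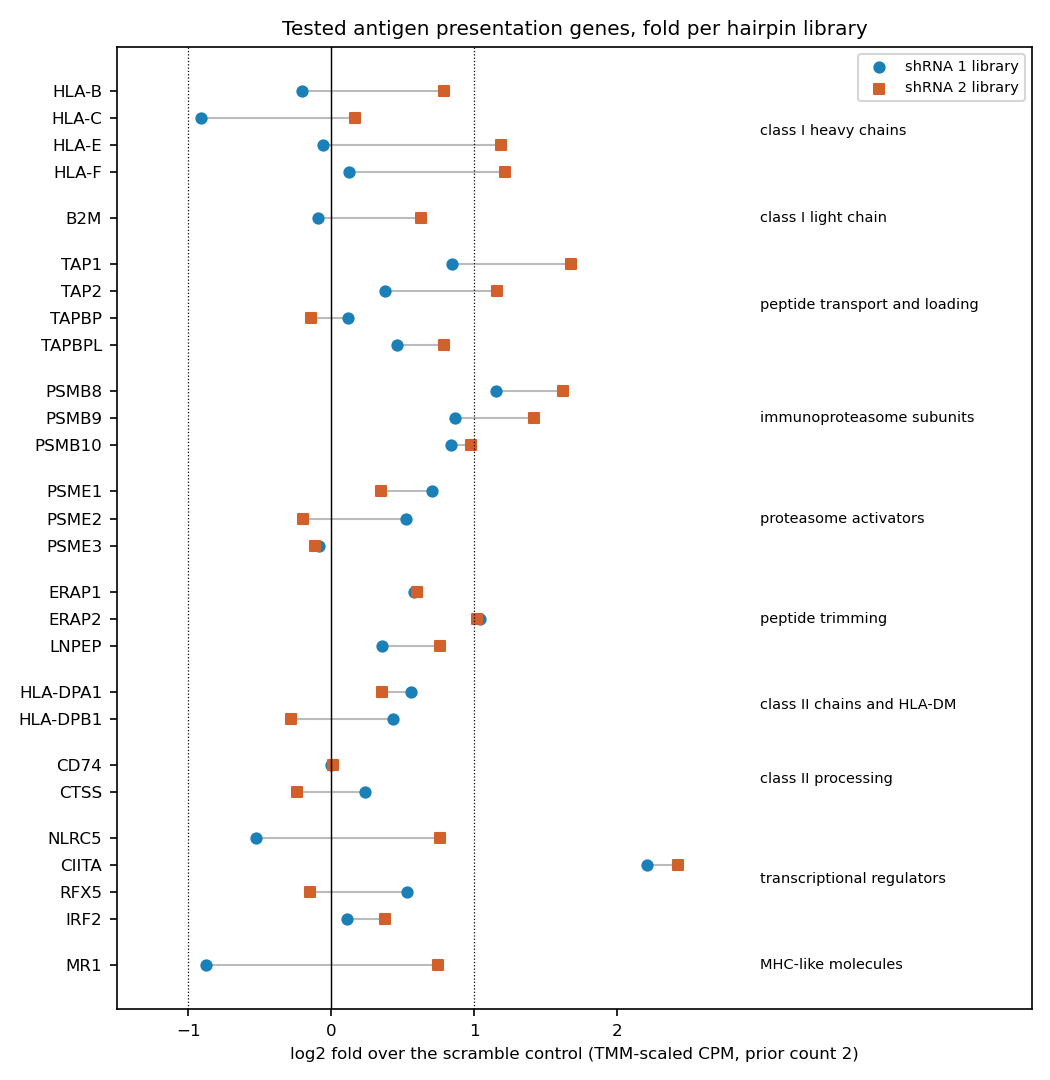
Log2 fold over the scramble control of the 27 tested genes, grouped by role, with circles for shRNA 1 and squares for shRNA 2 and dotted lines at a 2-fold difference. CIITA lies farthest right at 2.21 and 2.43, and the 3 immunoproteasome subunits lie between 0.84 and 1.62.

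Other genes of the pathway were set beside the 34. The 6 endoplasmic reticulum chaperones of loading had medians of −0.30 and 0.09. The highest by mean CPM were CANX (log2 folds −0.02 and 0.48), which holds new heavy chains, and HSPA5 (−0.33 and 1.26), a general chaperone. Of 6 tested endosomal proteases, CTSB (−1.24 and −1.84) and CTSV (−1.14 and −2.54) were at least 2-fold below the control with both hairpins, and the medians were −0.61 and −0.69. CTSD, chosen after its values were seen, lay in the other direction, at 1.26 and 0.996 on the log2 scale. The 6 cofactors that bind MHC promoters had medians of 0.31 and 0.21, with none 2-fold away. Among them CREB1 (0.64 and 0.19) and NFYB (0.48 and 0.23) had the highest mean CPM.

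Interferon gamma signalling genes did not move as 1 group. The medians of 10 genes were −0.24 and 0.08. IRF1, a transcription factor that binds class I promoters, had 997, 2859 and 2583 counts and log2 folds of 1.28 and 1.19, the only gene of that list at least 2-fold above the control with both hairpins. STAT2 (−0.06 and 1.34), chosen after its values were seen, passed that size with shRNA 2 but not shRNA 1. No gene of these 5 lists, the constitutive proteasome included, passed edgeR's test over all genes, and CTSB passed with DESeq2 (adjusted p 0.0287).

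**Figure D4:**
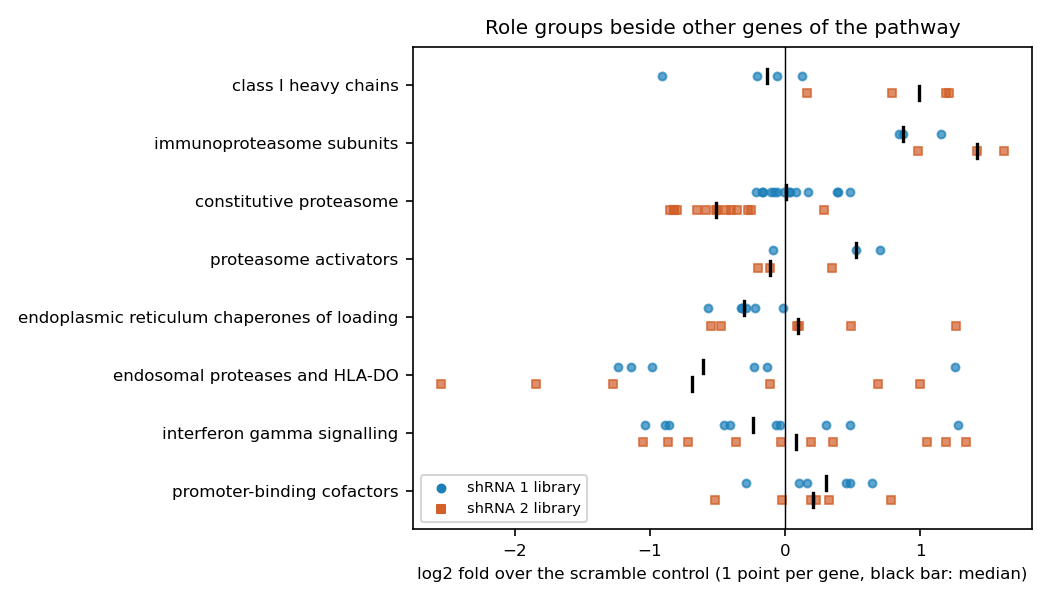
Log2 fold over the control of each gene, 1 point per gene and hairpin library, for 3 role groups of the 34 genes and 5 lists of other pathway genes, with black bars at the medians. The immunoproteasome subunits have medians of 0.87 and 1.42, beside 0.01 and −0.51 for the constitutive proteasome.

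Markers of cell types were counted to check the label. The 12 urothelial epithelial markers summed to 51617, 79536 and 45941 counts, most of them from keratins, with UPK1A and UPK3A at 0 or 1 count in each library. Of the 10 tested, 3 were at least 2-fold above the control with both hairpins (5.29% of all genes tested), a count given as description. They were UPK1B (log2 folds 2.67 and 1.40), UPK2 (1.34 and 1.34) and CDH1 (1.23 and 1.10), all chosen after their values were seen. KRT7 (−0.22 and −0.78) and KRT18 (−0.25 and −0.52) were below the control with both hairpins. KRT8 (0.16 and −0.51) and KRT19 (1.11 and −0.30) were below it with shRNA 2 only. The 14 leukocyte markers summed to 1565, 319 and 890 counts, of which CSF1R alone gave 1496, 263 and 518 and ITGAM 19, 6 and 288. The defining leukocyte gene PTPRC had 0, 3 and 4 counts, and the macrophage gene CD68 had 0 in all 3. The 8 endothelial markers summed to 129, 76 and 153 counts. Without CSF1R the other 13 leukocyte markers summed to 69, 56 and 372 counts, highest with shRNA 2, where ITGAM alone gave 288 of the 372. The part of any of these cell type markers in the values above was not tested.

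The hairpin libraries also differed from each other, which is the spread inside the shBLACAT2 group. Of the 27 genes, 18 were higher with shRNA 2 than with shRNA 1 by any size (66.7%, against 50.3% of all genes). By at least 2-fold, 5 were higher with shRNA 2 (18.5%, against 8.35%) and none was lower (4.48% of all genes). These were MR1, with a ratio of 3.08 (2.78 to 3.42), NLRC5 with 2.45 (2.24 to 2.68), HLA-E with 2.37 (2.29 to 2.46), HLA-F with 2.13 (1.99 to 2.29) and HLA-C with 2.11 (1.98 to 2.24). HLA-B lay just under that size. At the other end stood HLA-DPB1 at 0.605 (0.472 to 0.772), PSME2 at 0.607 (0.580 to 0.636) and RFX5 at 0.623 (0.578 to 0.672).

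**Figure D5:**
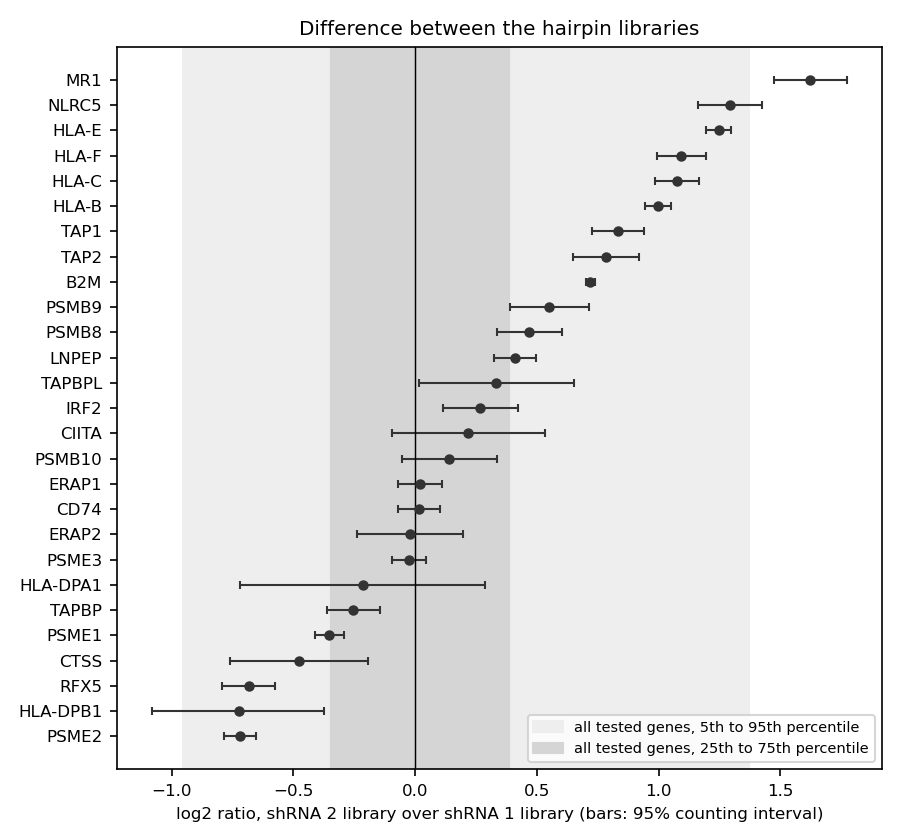
Log2 ratio of the shRNA 2 library to the shRNA 1 library for the 27 tested genes, in order of size, with 95% counting intervals. The shaded bands run from the 25th to the 75th and from the 5th to the 95th percentile of all tested genes, and MR1 at 1.62 lies beyond the 95th percentile of 1.37.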

How the data were processed

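The members and gene lists were chosen with earlier results of these data known. The authors deposited 1 table with whole-number read counts and FPKM per gene and library. The submitters' processing notes name TopHat2 2.0.9 and hg38; how reads were assigned to genes and whether strand was used is not given in the sources used here. The deposited FPKM served only to compare genes within a library. The row of TGFB1, broken over 4 lines, was left out. Of the gene identifiers, 98.5% were in GENCODE release 29, from which overlaps and shared words come.

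Counts were scaled with TMM factors (0.924, 1.02 and 1.06; edgeR 4.0.16, R 4.3.3). Log2 folds used a prior count of 2. Genes that averaged 1 CPM or more were tested by edgeR's quasi-likelihood test, two-sided, with Benjamini-Hochberg adjustment over 15132 genes and a threshold of 0.05. The SE is the log2 fold divided by the root of the F statistic. The test has 1 residual degree of freedom and assumes that the lone control varies like the hairpin libraries. P-values measure only the spread between these libraries, which may be technical. Intervals (95%) of ratios to the control are exact conditional binomial ones, and those of within-library ratios a normal approximation on the log scale; both, and the floor of 3 counts, cover counting error only. Alternatives were DESeq2 1.42.0, limma 3.58.1, other scalings, filters and prior counts, and each hairpin alone. Only the fold and edgeR steps were tried on simulated counts, with the same known folds in both hairpin libraries. The simulated spread was set in advance and not taken from these libraries, so their larger differences were not covered. All 34 members were named. From each pathway list the genes 2-fold away with both hairpins were named, otherwise the 2 of highest mean CPM.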

Additional observations from a re-analysis of the deposited data

How the results depend on the processing

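With 1 control library and 1 library per hairpin, no value here separates a hairpin from a culture. The number of all genes that passed the group test was 6 with edgeR, 531 with DESeq2, and 0 with limma (1560 genes at an unadjusted p below 0.05), without the low-expression filter (1461) and with a mean of at least 5 CPM (1240); no tested member passed under any of these. Without the filter 5 members, not 3, were at least 2-fold higher with shRNA 1, as HLA-G and HLA-DMA entered. Leaving out a hairpin library gave 3 to 8 members at least 2-fold higher, 8 when shRNA 1 was left out, and a median of 0.38 to 0.75 for the members' log2 fold. Library totals moved the median of all genes to 0.14 and 0.24. Group log2 folds near 0 changed sign: TAPBP, at −0.01, to 0.16 with library totals and 0.0135 with the 5 CPM filter; PSME3 to 0.0702 with library totals; CD74 to −0.0244 with DESeq2 and with its size factors and −0.0268 without the filter; CTSS to −0.0113 with DESeq2 and with its size factors, −0.0107 without the filter and −0.00268 with limma; and MR1 to −0.0633 with limma. With 1 hairpin library left out, the group log2 fold lay on both sides of 0 for 12 genes: HLA-B −0.21 to 0.79, HLA-C −0.91 to 0.16, HLA-E −0.0591 to 1.19, B2M −0.0929 to 0.63, TAPBP −0.14 to 0.12, PSME2 −0.20 to 0.52, HLA-DPB1 −0.28 to 0.43, CD74 −0.00341 to 0.0124, CTSS −0.24 to 0.23, NLRC5 −0.53 to 0.76, RFX5 −0.15 to 0.53 and MR1 −0.87 to 0.75. No direction is given for these 12 genes or PSME3 as a group. Members at least 2-fold higher with both hairpins numbered 2 with DESeq2's size factors and 4 with library totals; ERAP2 was lost with those size factors and, as HLA-DMA entered, without the filter. The cause of these changes was not tested. No paired analysis was possible because there is only 1 control library, and the numbers in the shBLACAT2 group name hairpins and not pairs. Counts under the floor of 3 limit HLA-DR, HLA-DM, IFI30 and CD1D.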
